A study of Homo sapiens with 5 samples.

Results

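Messages of 3 genes of cellular iron handling were read on 5 Affymetrix arrays of T84, a line from a human colon carcinoma that serves as a model of the gut epithelium: TFRC, the transferrin receptor that brings iron into the cell, FTL, the light subunit of the iron store ferritin, and ACO1, the iron sensor also known as iron regulatory protein 1. The rule took every probe set annotated to TFRC, FTL, ACO1 or FTH1 alone, which gave 3 of the 7018 probe sets of the value table, 1 for each of the first 3 genes; FTH1, the ferritin heavy chain, was not analysed here. The set was selected on earlier results of these arrays, the intensities of TFRC at 18 h against the untreated array, so the values of all 3 genes are given as a description, with no test. The cells were either left without interferon-gamma (IFN-gamma), a cytokine that T cells and natural killer cells secrete, or exposed to it at 1000 U/ml for 6 h or 18 h. All came from the same line, for which the labels name no engineered change, and the labels give 1 untreated array, made from a pool, and 2 arrays at each time that they call biological replicates. The untreated group therefore has no spread of its own, and nothing in the labels says how the treated cultures were kept apart.

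A cell takes up most of its iron as transferrin bound to the transferrin receptor, uses part of it for heme, iron-sulfur clusters and iron-dependent enzymes, and stores the rest in ferritin, a shell of heavy and light subunits. When iron is scarce, iron regulatory proteins bind hairpins in messenger RNA called iron-responsive elements: in the 3′ end of the TFRC message they protect it from decay, and near the 5′ end of the ferritin messages they block translation. When iron is plentiful, ACO1 carries an iron-sulfur cluster, leaves these hairpins and works as cytosolic aconitase. In human monocytes IFN-gamma is known to lower the transferrin receptor. The arrays measured messenger RNA, so any change in ferritin translation lies outside what they read.

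The feature that joins the 3 genes is the hairpin loop to which ACO1 binds, shown here for FTL, the one gene of the 3 with a match. It was found in the RefSeq start region of FTL (build GRCh38.p14, chr19:48965329-48965358, plus strand), and the capitals mark the bulged C and the loop.

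FTL: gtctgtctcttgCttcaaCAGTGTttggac

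The pattern searched was CAGTGN with a C before it, separated from it by any 5 bases, on the sense strand of the first 50 transcribed bases. FTL had 1 match, from base 33 to base 44 after the start, and TFRC and ACO1 had 0 there. Of 35116 such windows, 586 (1.67%) held the pattern.

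The promoter of TFRC is shown because the set was selected on the values of TFRC. It lies on the minus strand at chr3:196082091-196082340 (GRCh38.p14, RefSeq), the 250 bases before the start, with a GC content of 74.4%. The capitals mark ACGTG, the core of a hypoxia response element, and TATAAA, the TATA box.

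TFRC: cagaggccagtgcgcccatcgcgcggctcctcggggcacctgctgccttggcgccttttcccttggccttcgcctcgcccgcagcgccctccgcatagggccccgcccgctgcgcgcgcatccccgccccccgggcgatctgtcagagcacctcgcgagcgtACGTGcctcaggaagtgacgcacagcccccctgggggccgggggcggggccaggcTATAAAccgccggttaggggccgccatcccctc

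Motifs were searched on both strands of these 250 bases. ACGTG had 1 match in TFRC, 88 to 84 bases before the start, 1 in FTL and 0 in ACO1, and 18.5% of all promoters hold it. TATAAA matched in TFRC only, 33 to 28 bases before the start, with 10.7% of all promoters holding it. The letters GAAA followed by any 2 bases and GAAA again, the core of the interferon response element, matched in 0 of the 3 promoters (3.02% of all), as did the E-box CACGTG (6.34%), which ACGTG overlaps. GGGCGG, the GC box, matched 3 times in TFRC, 2 times in FTL and 6 times in ACO1, against 42.6% of all promoters with at least 1 match. A match is only a description of the letters, and no match says nothing of a factor that binds elsewhere.

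The labels were checked against 4 textbook targets of IFN-gamma, because every comparison below rests on them. CXCL10, a T-cell chemokine, read an intensity of 1317 on the array with the untreated label, 41 and 1149 at 6 h, and 1260 and 1399 at 18 h. IRF1, a transcription factor, had 1086, then 14 and 907, then 933 and 921. TAP1 and GBP1 gave the same picture, with 1772 and 325 on the array with the untreated label and 61 and 8 on the array labelled 6 h replicate 1. These genes therefore go against 2 labels: on the array with the untreated label they were as high as after treatment, and the array labelled 6 h replicate 1 was low in all 4. Both arrays stay in the groups of their labels. The log2 changes of TFRC, FTL and ACO1 that use the 6 h array are also given without it. Their standard errors (SE) rest on the spread within groups over all arrays. Those at 18 h against untreated therefore use the 6 h array too, and they are given only with it. The untreated group has no second array, so no comparison with it can be made without the one in doubt. Whether the columns of these 2 arrays were exchanged was not tested. The authors' deposited table of induced probe sets has another control column, which holds 17 for CXCL10, 43 for IRF1, 136 for TAP1 and 7 for GBP1. Over the 97 probe sets of the authors' deposited table used here, that column equals the array with the untreated label in 3, while each of the 4 treated columns, the low 6 h replicate 1 among them, equals the array of its label in all 97. The table holds 0 of the 3 iron probe sets.

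The epithelial identity of the cells was read from its markers: all 10 (EPCAM, KRT8, KRT18 and others) lay above the floor of 20, the intensity below which values were not told apart, on every array. Of 4 leukocyte markers 1 did so (CD3E, at 168 to 345), of 5 fibroblast and endothelial markers 1 (COL1A1), and of 2 erythroid markers 0. From 39.8% to 44.0% of each array's probe sets lay at or below the floor, and 5029 probe sets, the 3 iron probe sets among them, exceeded it on at least 1 array and were compared by limma. That fit called 0 of 5029 probe sets (0.0%) in each of the 3 comparisons at an adjusted p under 0.05. An unadjusted p under 0.05 was reached by 223 for 18 h against untreated, by 183 for 6 h against untreated and by 217 for 18 h against 6 h. The 3 iron genes were not among the calls, from which nothing is read here.

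TFRC, on chromosome 3 (196049284 to 196082090, GRCh38.p14), had an intensity of 1072 on the array with the untreated label. It had 477 and 894 on the 6 h arrays, and 343 and 252 on the 18 h arrays. Both 18 h arrays were thus below the other 3, and the groups at 6 h and 18 h did not overlap. Among all 5029 probe sets, 10.3% had both 18 h arrays below the other 3, and in 28.7% the 18 h and 6 h arrays did not overlap in either direction, so the order alone is common on these arrays. In RNA from a whole culture, fewer cells with a message and less message per cell cannot be told apart.

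**Figure D1:**
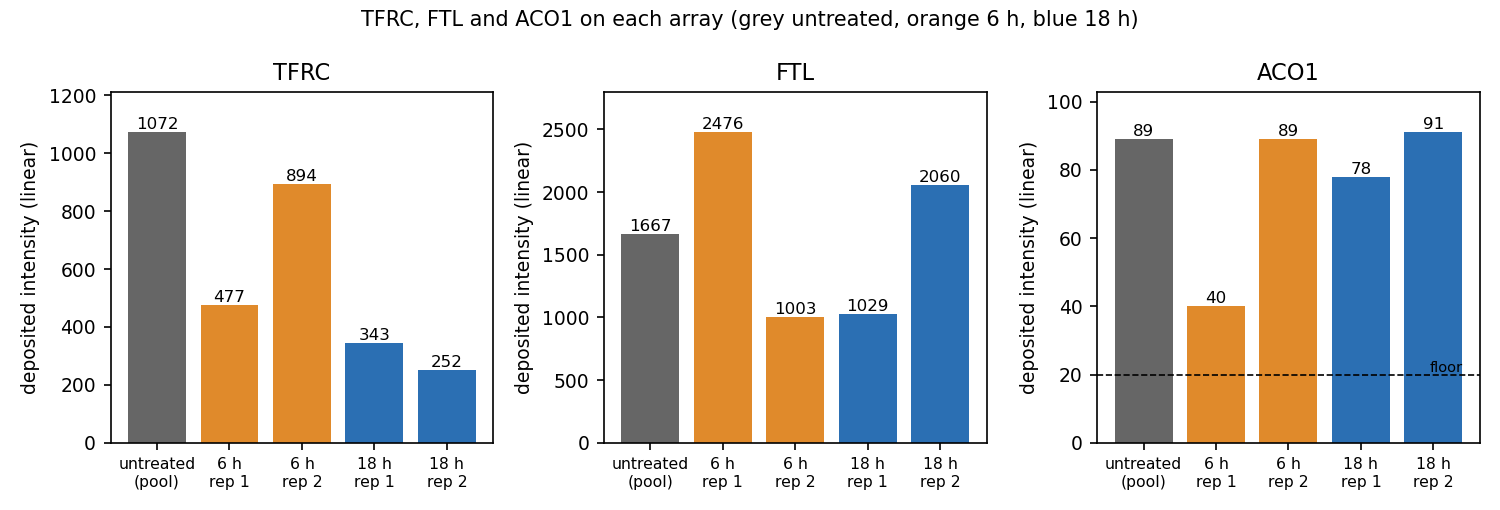
Deposited linear intensity (vertical axis, starting at 0, a separate scale for each gene) of TFRC, FTL and ACO1 on each of the 5 arrays, 1 bar per array, with its value on top. TFRC is lowest on both 18 h arrays (343 and 252), FTL differs more between replicates than between groups, and ACO1 is at 78 to 91 on all arrays but 6 h replicate 1 (40).

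The 18 h mean of TFRC was 297.5 ± 64.35 (SD, n = 2), which is 27.8% of the single untreated value. Against the array labelled 6 h replicate 1, the only one with low interferon targets, the 18 h mean of TFRC was 62.4%, and the single 18 h arrays were 71.9% and 52.8% of it. The 2 other arrays with high interferon targets, at 1072 and 894, lay above that array, whereas the 18 h arrays lay below it. The size of the TFRC difference at 18 h thus depends on which array it is read against. On the scale of log2(intensity + 1), the change at 18 h against untreated was -1.86 (SE 0.53). The single arrays were 3.12 and 4.25 times lower than the array labelled untreated, while they differed from each other by 1.36 times. Of all 5029 probe sets, 131 (2.6%) had both 18 h arrays at least 2-fold below the untreated one. Among the 807 probe sets with a mean intensity of 300 or more, the range in which TFRC lies, 3 did (0.372%): TFRC, VIL1, the bundler of microvillus actin, and 1 probe set with no gene name here. The last 2 were singled out after their values were seen. In that range no probe set had a lower change than TFRC, and of all probe sets tested 23 did. These ranks describe the contrast on which TFRC was known when it was chosen.

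At 6 h the mean of TFRC was 685.5 ± 295 (SD, n = 2), or 63.9% of the untreated value, a log2 change of -0.71 (SE 0.53). The 2 arrays differed from each other by 1.87 times, so the difference from the untreated array was not larger than the spread. Replicate 2, the array with high interferon targets, read 83.4% of the value on the array with the untreated label, and the array labelled 6 h replicate 1 read 44.5% of it. With replicate 2 alone the log2 change was -0.26, and with replicate 1 alone -1.17.

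From 6 h to 18 h the log2 change of TFRC was -1.15 (SE 0.43), the 18 h mean being 43.4% of the 6 h mean. This comparison does not use the untreated array, but it uses the same 18 h values on which TFRC was chosen. It is therefore not free of that choice. Without the array labelled 6 h replicate 1 it was -1.60, and without 6 h replicate 2 it was -0.70. Leaving out 18 h replicate 2 gave -0.93 and leaving out 18 h replicate 1 gave -1.37. Only 6 of the 15 alternatives tried can move this value, the 4 above and 2 normalizations, and it was below 0 in all 6, while 18 h replicate 1 (343) came closest to 6 h replicate 1 (477), at 1.39 times below it. Of all probe sets, 163 (3.24%) had a log2 change of -1 or below here, and 98 had a lower change than TFRC.

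**Figure D2:**
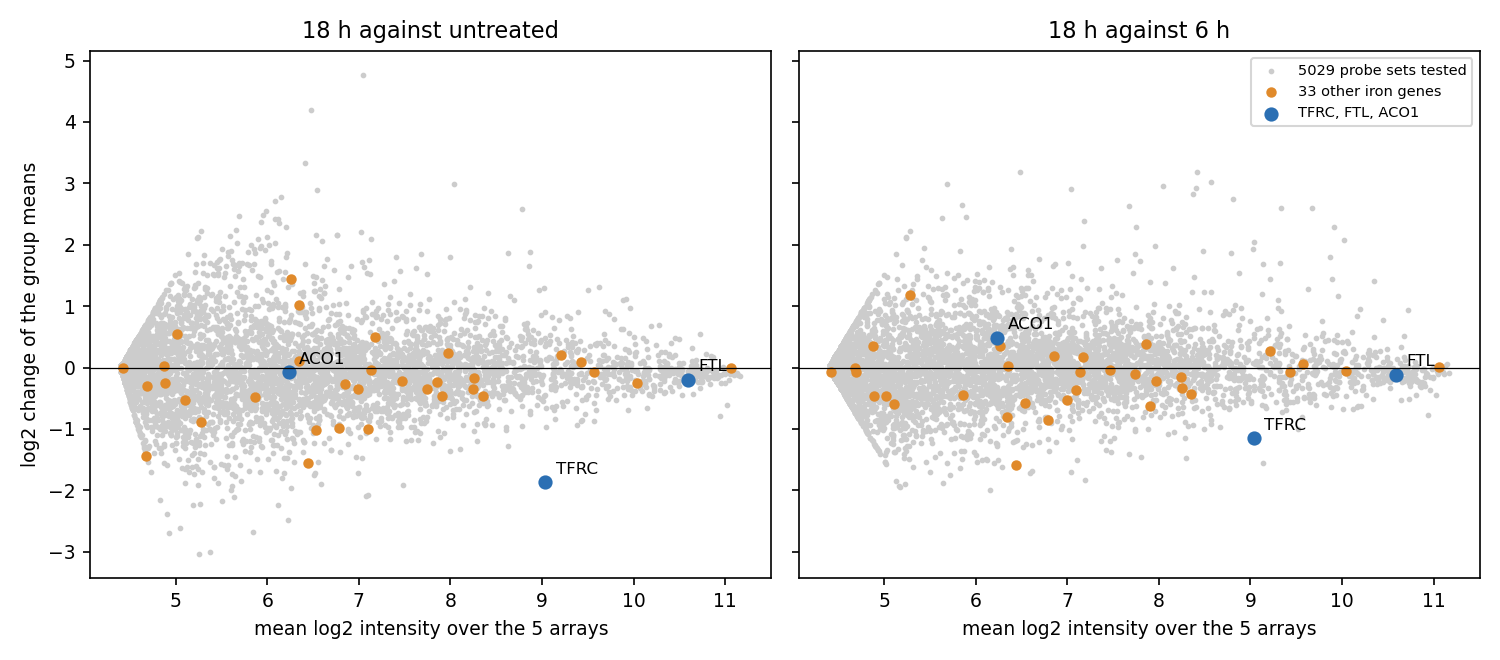
Log2 change of the group means (vertical axis) against the mean log2 intensity over the 5 arrays (horizontal axis) for 5029 probe sets (grey), 33 other iron genes (orange) and TFRC, FTL and ACO1 (blue), at 18 h against untreated on the left and 18 h against 6 h on the right. TFRC lies at -1.86 and -1.15, below the bulk of probe sets of its brightness, while FTL and ACO1 lie near 0 on the left.

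The transferrin receptor is also known as a surface marker of dividing cells, so 8 proliferation genes were set beside it. Their summed intensity was 2489 on the array with the untreated label, then 663 and 2415 at 6 h, then 1864 and 1537 at 18 h. The lowest sum was thus on the array labelled 6 h replicate 1, whereas TFRC was lowest at 18 h. PCNA, MCM2 and MYC, genes of DNA replication and growth, are the brightest of the list on most arrays and carry much of the sum. BIRC5, the mitotic protein survivin, singled out after its values were seen, had 393, then 87 and 147, then 88 and 96. Its log2 change at 18 h against untreated was -2.08 (SE 0.42), and its p is not given, because BIRC5 was picked on these values. Against the array labelled 6 h replicate 1, the one with low interferon targets, BIRC5 was not lower at 18 h (87 against 88 and 96). Of the 7 tested members 5 were below 0 at 18 h against untreated and 1 was at 0, with a median log2 change of -0.25, against -0.02 over all probe sets tested. The share of all probe sets below 0 was not counted. The summed intensity of the 10 epithelial markers was 10546, then 13826 and 7691, then 8049 and 11665, in another order than TFRC. That sum is carried by the brightest markers, such as KRT18 with 2411, then 3271 and 1673, then 1708 and 2838. Of the 10 markers, VIL1 and GUCY2C, a receptor of the gut epithelium, had both 18 h arrays below the other 3, as TFRC had. Of all 5029 probe sets, 10.3% had that order. CDH1 and CDX2 went the other way, with both 18 h arrays above the other 3. The share of all probe sets with this opposite order was not counted. GUCY2C had 340, then 228 and 334, then 204 and 180 on its brighter probe set, while its other one was negative on every array. The part of the proliferation genes and of these markers in the TFRC values was not tested.

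The 5 genes whose profile over the 5 arrays was nearest to that of TFRC were ASNS, STOM, KCNQ1, VIL1 and IDH1, among 1680 probe sets with 1 gene name and a mean intensity of at least 100. Nearness was the root mean square difference of log2 values after each probe set's mean was subtracted, which ran from 0.20 for ASNS to 0.34 for IDH1, with a median of 0.85 over all probe sets compared. ASNS, asparagine synthetase, had 165 on the array with the untreated label, 101 and 161 at 6 h, and 77 and 54 at 18 h. STOM, the membrane protein stomatin, had 197, then 83 and 106, then 59 and 57. KCNQ1, a basolateral potassium channel, had 151, then 104 and 148, then 88 and 52 on the nearest of its probe sets, the other one reaching at most 28. VIL1 had 441, then 387 and 466, then 214 and 172. IDH1, the cytosolic isocitrate dehydrogenase that uses the product of aconitase, had 150, then 108 and 173, then 79 and 71. All 5 shared the low 18 h arrays with TFRC, and for each the array labelled 6 h replicate 1 lay below 6 h replicate 2. The choice by nearness to TFRC on these same arrays selects for both traits, so nothing is read from them. The likeness is a description over 5 arrays that share their scaling.

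**Figure D3:**
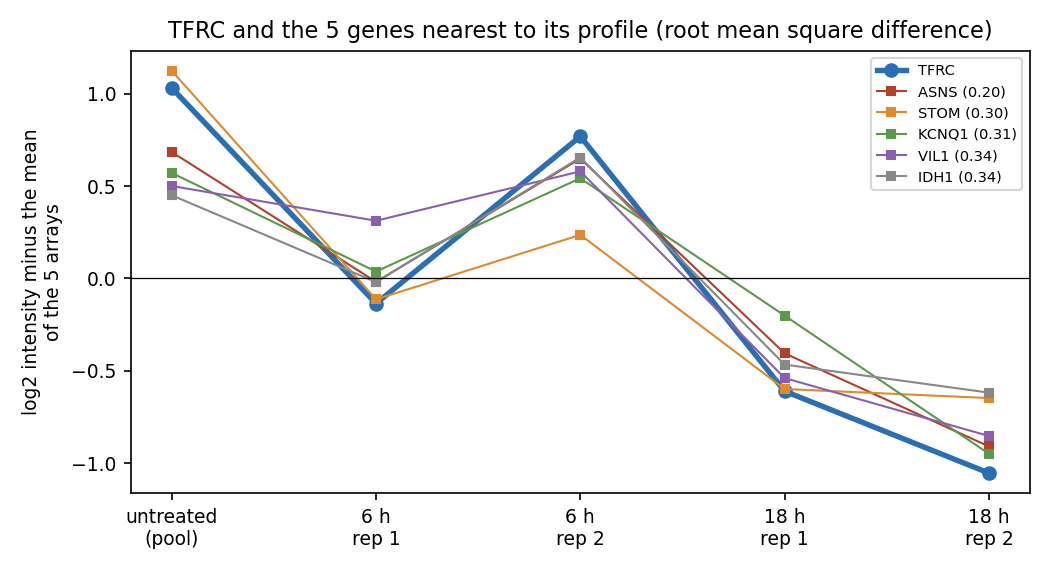
Log2 intensity minus the mean of the 5 arrays (vertical axis) for TFRC (thick blue) and the 5 genes with the nearest profile, on each array (horizontal axis); the legend gives the root mean square difference from TFRC. All 6 lines are lowest at 18 h, a trait for which the choice by nearness selects. That of TFRC runs from 1.03 on the array with the untreated label to -1.05 on 18 h replicate 2.

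FTL, on chromosome 19 (48965309 to 48966879), had an intensity of 1667 on the array with the untreated label. At 6 h it had 2476 and 1003, and at 18 h 1029 and 2060. The replicates of 1 time differed by 2.47 times at 6 h and by 2.00 times at 18 h, and the groups overlapped. The 6 h mean was 1739.5 ± 1042 (SD, n = 2) and the 18 h mean 1544.5 ± 729 (SD, n = 2). The log2 change was -0.08 (SE 0.82) at 6 h and -0.20 (SE 0.82) at 18 h against untreated, and -0.11 (SE 0.67) between the times, each smaller than its error. Without the array labelled 6 h replicate 1 it was -0.73 at 6 h and 0.54 between the times, so the sign between the times turned. The 18 h mean of FTL was 62.4% of the array labelled 6 h replicate 1. The light chain has near-identical processed pseudogenes in the genome, so this probe set may also read copies of it.

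FTL is one of the brightest probe sets of the table, the 75th by mean intensity, and its array order was that of the bright end. Over the 222 probe sets with a mean of 1000 or more, the median ratio to the array labelled untreated was 1.43 and 0.723 on the 6 h arrays and 0.774 and 1.19 on the 18 h arrays. The ratios of FTL were 1.485 and 0.602, then 0.617 and 1.24. Divided by the median of the bright probe sets, they became 1.04 and 0.833, then 0.798 and 1.04. The order of FTL, with 6 h replicate 1 and 18 h replicate 2 above the untreated array and the other 2 below it, was that of 132 of the 222 bright probe sets (59.5%) and of 320 of all 5029 (6.4%). Below a mean of 1000, the medians of the 3 dimmer classes lay between -0.10 and 0.08 (log2) on all arrays.

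**Figure D4:**
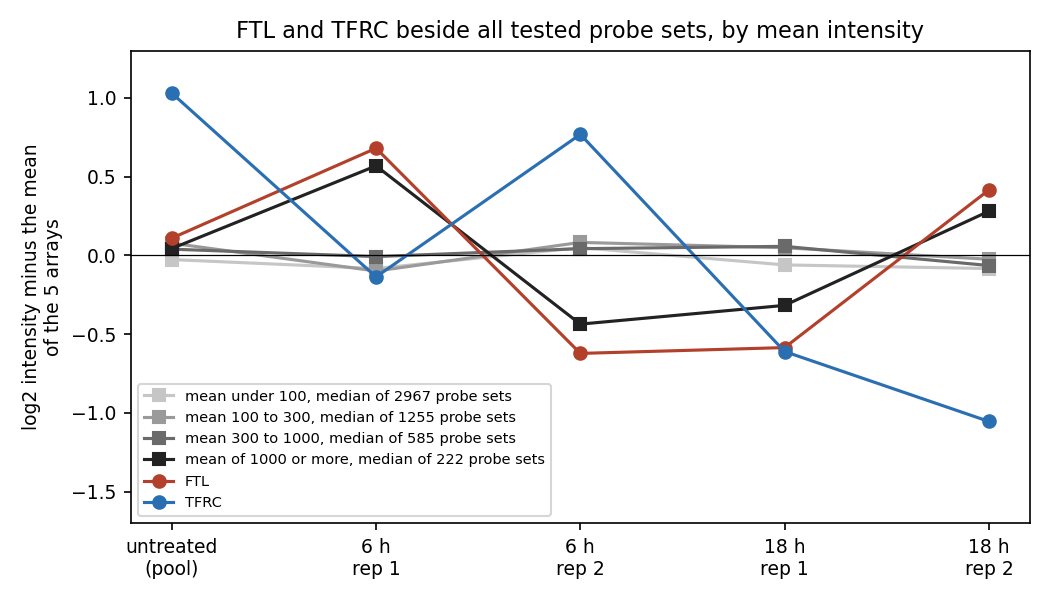
Log2 intensity minus the mean of the 5 arrays (vertical axis) on each array (horizontal axis), as the median of 4 classes of probe sets by mean intensity (grey to black squares) and for FTL (red) and TFRC (blue). FTL follows the brightest class (0.57 on 6 h replicate 1 and -0.44 on 6 h replicate 2), while the class of 300 to 1000, to which TFRC belongs, stays between -0.06 and 0.06.

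When the arrays were brought to one distribution by quantile normalization, FTL had intensities of 1661 on the array with the untreated label, then 1676 and 1344 at 6 h, then 1249 and 1722 at 18 h. The error of its change at 18 h against untreated went from 0.82 to 0.33, and the change itself was -0.18. On that scale GAPDH, a glycolytic enzyme of the bright end, had 1722, 1738 and 1700.5, and 1633 and 1830. Other bright probe sets stayed uneven: ACTB, cytoskeletal actin, had 1939, then 2041 and 1566.5, then 1460 and 2278 on one probe set, and 1326, then 1432 and 796, then 726 and 1404 on another. The brighter probe set of B2M had 2126, then 1950 and 2190, then 2126 and 2325. Its dimmer probe set, less bright than those of ACTB, had 679, then 980 and 241, then 438 and 998. TFRC kept its order at 18 h, with 1056, 486 and 1098, and 330 and 263, and its change from 6 h to 18 h was -1.31. As deposited, a change of FTL within the spread of its replicates was not detectable.

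ACO1, on chromosome 9 (32384643 to 32454769), had an intensity of 89 on the array with the untreated label. At 6 h it had 40 and 89, and at 18 h 78 and 91. The array labelled 6 h replicate 1 alone was lower, and the other 4 lay between 78 and 91. The 18 h mean was 84.5 ± 9.19 (SD, n = 2) and the 6 h mean 64.5 ± 34.65 (SD, n = 2). The log2 change was -0.08 (SE 0.59) at 18 h and -0.57 (SE 0.59) at 6 h against untreated, and 0.49 (SE 0.48) between the times. Without the array labelled 6 h replicate 1, the change at 6 h was 0.0 and that between the times -0.08, and without 6 h replicate 2 it was 1.06, so that 1 array sets its direction. Against the array labelled 6 h replicate 1 the 18 h mean of ACO1 was 211.2%. The level of ACO1 is dim, with 53.4% to 68.6% of probe sets below it on an array.

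**Figure D5:**
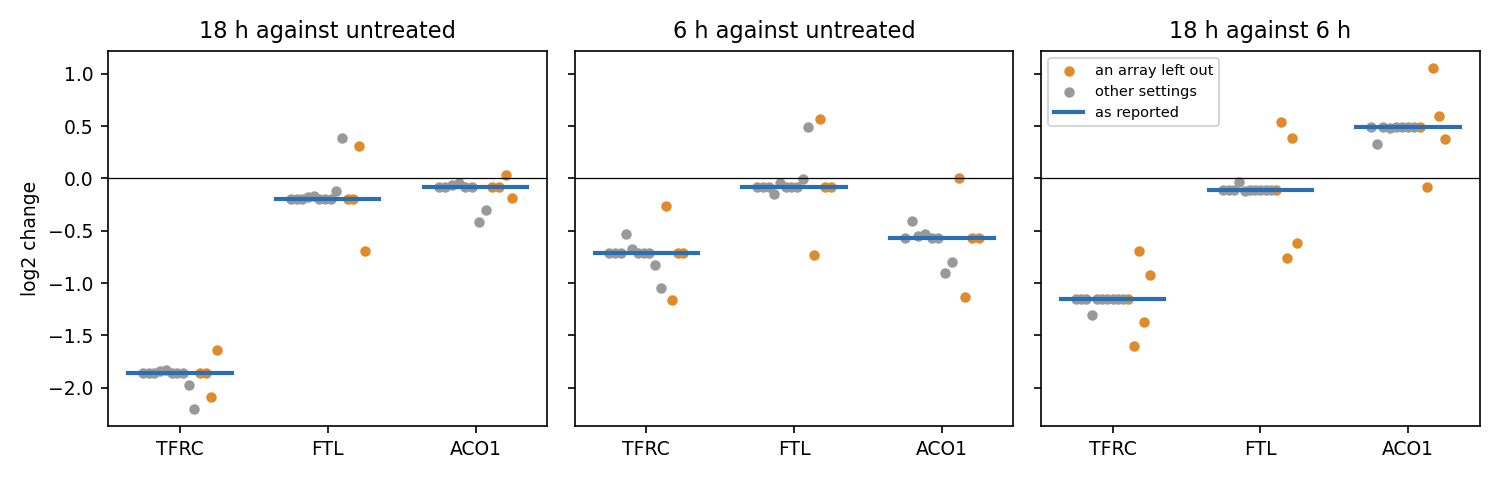
Log2 change (vertical axis) of TFRC, FTL and ACO1 in the 3 comparisons, as reported (blue line), with an array left out (orange points) and under the other settings tried (grey points). TFRC is below 0 in every setting, from -2.20 to -1.64 at 18 h against untreated, where 6 of 14 alternatives move its value, while FTL and ACO1 have points on both sides of 0 or at 0 in each comparison.

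The other genes of iron handling were taken from 7 lists with 65 genes, of which 41 had a probe set of their own and 33 exceeded the floor. In each of the 3 comparisons 0 of the 33 passed limma's test after Benjamini-Hochberg adjustment, and an unadjusted p under 0.05 was reached by 3 for 18 h against untreated, 2 for 6 h against untreated and 1 for 18 h against 6 h. Of all 5029 probe sets, 223, 183 and 217 reached that unadjusted p by limma, in the same order of comparisons. At 18 h against untreated 23 of the 33 lay below 0, 9 above and 1 at 0, with a median log2 change of -0.25, beside -0.02 over all probe sets tested. The share of all probe sets below 0 was not counted, and some of these signs, such as that of PPOX, rest on values near the floor.

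Among 4 tested genes of iron uptake, SLC11A2, the divalent metal transporter that carries iron across the apical and endosomal membranes, had 260 on the array with the untreated label, 386 and 218 at 6 h, and 215 and 164 at 18 h. Its log2 change at 18 h was -0.47 (SE 0.48), within the error. LCN2, a lipocalin that binds the iron chelators of bacteria, had 37, then 48 and 133, then 97 and 107, a log2 change of 1.44 (SE 0.73) with an adjusted p of 1.0 by limma. SLC11A1, the related transporter of phagocytes, crossed the floor on 3 arrays, at most at 56.

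Of the genes of export and systemic control only B2M exceeded the floor. Its protein, beta-2-microglobulin, is the partner of the hemochromatosis protein HFE and of MHC class I, and it had 2155, then 2911 and 1561, then 1609 and 2851, in the array order of FTL. HFE itself and CP, the ferroxidase ceruloplasmin, were at or below the floor on all 5 arrays.

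The intracellular chaperones that hand iron to ferritin, PCBP1 and PCBP2, were bright. PCBP1 had 803, then 678 and 794, then 836 and 698. PCBP2 varied more between the 6 h replicates (1.59 times) and had 1189, then 827 and 1316, then 1130 and 886. NCOA4, the receptor that delivers ferritin to the lysosome for iron release, had 140, then 82 and 126, then 161 and 84, with the 18 h arrays on both sides of the untreated one. EPAS1, the hypoxia factor whose message carries an iron-responsive element, had 132, then 272 and 66, then -2 and 96, and differed as much between replicates as between groups.

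In heme synthesis 5 of 6 tested genes lay below 0 at 18 h against untreated. Their list had a median log2 change of -0.33, beside -0.02 over all probe sets tested, and the share of all probe sets below 0 was not counted. Of the 5, CPOX was near the floor, at 17 to 29, and PPOX was above it on 1 array. UROD was below 0 on its brightest probe set, while another read 41 on the array with the untreated label and 74 and 91 at 18 h. FECH, ferrochelatase, which puts the iron into heme, had 138, then 109 and 95, then 60 and 76, with both 18 h arrays below the other 3. Of all 5029 probe sets, 10.3% had that order. The log2 change of FECH at 18 h against untreated was -1.02 (SE 0.28). FECH was named for the size of this change in its list, so its p is not given. The array labelled 6 h replicate 1, the one with low interferon targets, read 109, and against it the difference was smaller. PPOX, protoporphyrinogen oxidase, had 56 on the array with the untreated label and negative values on the other 4, so that only 1 dim value set it apart. UROS, a synthase of the same pathway, was above the floor only at 85 on 6 h replicate 1 and 44 on 18 h replicate 1.

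In heme breakdown, HMOX1, the inducible heme oxygenase that frees iron from heme, had 214 on the array with the untreated label, 150 and 127 at 6 h, and 93 and 122 at 18 h. All 4 treated arrays were below the array with the untreated label, an order whose share among all probe sets was not counted. The 18 h mean of 107.5 ± 20.5 (SD, n = 2) was 50.2% of that array. The array labelled 6 h replicate 1, the one with low interferon targets, read 150, and against it the difference was smaller. HMOX1 was named for the size of its change at 18 h, so its p is not given. HMOX2, its constitutive relative, had 36, then 126 and 133, then 39 and 140, so that 18 h replicate 1 lay beside the untreated array. HP, the hemoglobin-binding haptoglobin, had 252, then 243 and 185, then 156 and 250.

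Among 5 tested genes of iron-sulfur cluster assembly and related enzymes, FDX1, the ferredoxin that gives electrons in cluster assembly and steroid synthesis, had 87 on the array with the untreated label, 18 and -6 at 6 h, and 60 and 36 at 18 h. It was the 1 gene of the 33 with an unadjusted p under 0.05 between the times, but both 6 h values lay below the floor and were raised to it, so the floor sets the size, error and p of that difference, and they are not given. IDH1, given above for its likeness to TFRC, had a log2 change of -0.99 (SE 0.39) at 18 h against untreated. IDH2, the mitochondrial form, had 352, then 296 and 318, then 346 and 220. Among the iron-dependent enzymes, RRM1 and RRM2, the subunits of ribonucleotide reductase, were dim, at 32 to 72 and 9 to 79, and PLOD2, a lysyl hydroxylase, had 114, then 168 and 121, then 216 and 121. Of the 7 tested members of that list 4 lay above 0 at 18 h and 3 below.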

How the data were processed

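The authors deposited an intensity per probe set on a linear scale for 5 Affymetrix arrays; between 25.3% and 29.45% of the values are negative, and their computation and scaling are not given in the sources used here. RNA was taken with Trizol and labelled with biotin, per the labels' protocols. Groups follow the titles. Genes were named from the platform annotation (5649 of 7018 probe sets with 1 symbol, 321 with several, 1048 with none; 0 symbols needed updating). Intensities below a floor of 20 were raised to it, and log2(intensity + 1) was used, which understates the change of dim genes. Differences between group means came from limma 3.58.1 (lmFit, eBayes, R 4.3.3, 2 residual degrees of freedom) on all 5 arrays, adjusted by Benjamini-Hochberg over 5029 probe sets. The fit was tested on simulated data with a smaller spread between arrays than TFRC, FTL and ACO1 have. That test therefore does not say what the fit can find at their spread. P-values rest on array-to-array spread that may be technical, and the number of arrays limits the precision.

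The members and lists were chosen with earlier results of these data known. Where a gene had several probe sets, the one with the highest mean was used. By rule, up to 3 members of each iron list with the largest change at 18 h against untreated were named. So were 4 label checks and the 5 nearest profiles of TFRC. Other genes, such as PCBP1, HFE, CP, CPOX, UROD, HSPA9, BIRC5 and GUCY2C, were named outside this rule. Promoters came from RefSeq (GRCh38.p14), where all 3 genes matched. Probe sets for the 5′, middle and 3′ parts of TFRC, ACTB and GAPDH were not used here. The intensity classes and the class of 300 or more were chosen with the values of the 3 genes known. Floors, normalizations, filters, the arrays in the fit, the replicate numbers and arrays left out were tried as alternatives.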

Additional observations from a re-analysis of the deposited data

How the results depend on the processing

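The counts of probe sets called by limma stayed at 0 in all 3 comparisons under floors of 0, 50 and 100, quantile normalization, median centring, a minimum mean intensity of 100, a fit on the compared groups alone and each array that could be left out (range 0 to 0). The array with the untreated label could be left out only of 18 h against 6 h, where this changed nothing. Without the filter on dim probe sets 97 were called at 18 h against untreated, 100 at 6 h against untreated and 1 at 18 h against 6 h. Of the 97, 91 had no spread between replicate arrays, as had 92 of the 100 and the 1. All treated arrays were at the floor, where values are equal, in 90, 90 and 0 of the calls, and the only iron gene among them was PPOX, at both times. With the replicate block, the number of the labels as a factor, 0 were called in each comparison. The numbers do not pair the arrays by any label, and same-numbered arrays deviated in opposite directions (correlation -0.291 across probe sets). With the numbers of the 18 h arrays crossed, an alternative chosen after seeing the data, 0 were called as well. TFRC was below 0 in all alternatives, but not all of them move its value. Those that do were 6 of 14 at 18 h (-2.20 to -1.64), 6 of 14 at 6 h (-1.17 to -0.26) and 6 of 15 between the times (-1.60 to -0.70). Floors and filters, for example, cannot move it, so the others say nothing of stability. TFRC was chosen on the contrast of 18 h against untreated, and the contrast between the times uses the same 18 h values. FTL kept its sign in 12 of 14, 12 of 14 and 13 of 15, between -0.77 and 0.57, with 6 alternatives that move it in each, and ACO1 in 11 of 12, 11 of 12 and 12 of 13. ACO1 gave no value with a floor of 100 or a minimum mean of 100. The ratio of 3′ to 5′ and middle probe sets was not run. Dim genes near the floor, ACO1 included, limit what small changes could be seen.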

Other observations

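Second probe sets of the iron genes gave these values. B2M had 684 on the array with the untreated label, 1185 and 262 at 6 h, and 464 and 1056 at 18 h on its dimmer probe set, again with the array order of FTL. LCN2 had 18, then 65 and 32, then 68 and 51, with all 4 treated arrays above the untreated one on this probe set as on the brighter one. The share of all probe sets with that order was not counted. HSPA9, the mitochondrial chaperone that hands over iron-sulfur clusters, had 204, then 163 and 220, then 142 and 124, with both 18 h arrays the lowest, whereas its brighter probe set had 638, then 610 and 847, then 678 and 686, with both 18 h arrays above the untreated one. UROD, a decarboxylase of heme synthesis, had 3 probe sets that did not share an order. Its brightest had 133, then 158 and 143, then 75 and 143. On another, with 41, then 149 and 91, then 74 and 91, all treated arrays lay above the untreated one. The dimmest had 20, then 34 and 51, then 12 and -59. There the untreated array and both 18 h arrays were at or below the floor, so they were not told apart.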
